A study of Drosophila melanogaster with 6 samples.

Results

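The genes of the mitochondrial genome (mtDNA) of Drosophila melanogaster were examined in indirect flight muscle of pupae at 64 h after puparium formation (APF), as all genes that the deposited count table places on the mitochondrial chromosome. They are 37 of the 17494 genes in the table and comprise 13 protein-coding genes, 2 rRNA genes and 22 tRNA genes. RNA was sequenced from 3 WT libraries and 3 M1BP RNAi libraries, each made from the hand-dissected dorsolongitudinal flight muscles of 6 to 8 pooled pupae reared at a single temperature. Both groups carried the muscle driver Mef2-GAL4. WT animals had this driver alone, and M1BP RNAi animals also had a UAS hairpin transgene against M1BP, a zinc finger transcription factor that binds promoters of broadly expressed nuclear genes. Mef2-GAL4 is also active in some neurons, and a single RNAi genotype was sequenced. The question for the mtDNA was whether its own transcripts shifted, in amount or in composition, when this nuclear factor was depleted in muscle.

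The animal mitochondrial genome is a small circle transcribed by a dedicated polymerase, PolrMT, in long polycistronic RNAs from both strands. The rRNAs and most mRNAs are separated from each other by tRNAs, which are cut out at their 5′ end by RNase P and at their 3′ end by RNase Z, and the mRNAs and rRNAs then receive short 3′ adenine tails. The protein-coding genes encode core subunits of oxidative phosphorylation (OXPHOS): ND genes for Complex I, Cyt-b for Complex III, Co genes for Complex IV and ATPase genes for Complex V. All other subunits are encoded in the nucleus, so flight muscle, which depends on OXPHOS for sustained contraction, has to bring products of both genomes together.

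Ordered by start, 23 genes lie on the plus strand and 14 on the minus strand, in 10 runs of consecutive genes on the same strand (dm6 mitochondrial chromosome, coordinates of the count table). The longest run holds 15 plus-strand genes from CoI (start 1474) to tRNA:Glu-TTC (end 6325). It is followed by 5 minus-strand genes from tRNA:Phe-GAA to ND4L (6344 to 9835), then by tRNA:Thr-TGT and tRNA:Pro-TGG on opposite strands, and by the plus-strand run ND6, Cyt-b and tRNA:Ser-TGA (9971 to 11703). The last run, on the minus strand, holds ND1, tRNA:Leu-TAG, lrRNA, tRNA:Val-TAC and srRNA (11721 to 14916), where lrRNA and srRNA are the large and small ribosomal RNAs. In Drosophila the termination factor mTTF binds at the border of tRNA:Glu-TTC and tRNA:Phe-GAA and at that of tRNA:Ser-TGA and ND1, both of which are ends of these runs. The start of the map holds tRNA:Ile-GAT, tRNA:Gln-TTG, a plus-strand run of tRNA:Met-CAT, ND2 and tRNA:Trp-TCA (171 to 1329) and the minus-strand pair tRNA:Cys-GCA and tRNA:Tyr-GTA (1322 to 1468).

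Libraries held 42.2 to 54.9 M counts (M, 1e6), of which 6.38 to 19.0 M were on mtDNA genes, so counting error was small for the protein-coding genes and lrRNA. The lowest tRNA genes had under 10 counts in some libraries. The RNA had been captured with oligo(dT) beads, so counts on rRNA and tRNA genes are of captured RNA and need not follow its total amount. Counts on a tRNA gene also do not separate the mature tRNA from a longer transcript that still contains it. Of the 37 genes, 34 passed edgeR's filter on low counts. M1BP itself had 8.19, 6.97 and 8.83 counts per 1e6 counts (CPM) in WT, against 3.00, 3.57 and 2.63 in M1BP RNAi, giving a log2 ratio of -1.38 ± 0.15 (SE, edgeR adjusted p = 9.54e-04). The labelled tissue was checked on 6 flight muscle genes (Act88F, fln, TpnC4, Mhc, sals and up), whose summed level was 108321 to 123636 CPM in WT and 77480 to 80773 CPM in M1BP RNAi. In bulk RNA a smaller number of cells of a type and less RNA per cell cannot be told apart. Of 3 myoblast markers, twi and Him stood at or near 0 and zfh1 was at 24.5 to 30.0 CPM in WT and 29.1 to 37.5 CPM in M1BP RNAi. Of the tendon genes, Tsp66A stood at or near 0 and sr was at 3.53 to 5.36 CPM over the 6 libraries.

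The share of all counts taken by mtDNA genes was 26.2%, 44.2% and 26.3% in WT, against 15.1%, 23.4% and 19.7% in M1BP RNAi. The groups did not overlap, with M1BP RNAi the lower, and WT replicate 2 stood far above the other libraries of its group. The means were 32.2% ± 10.4 (SD, n = 3) and 19.4% ± 4.18 (SD, n = 3), with a two-sided exact permutation p of 0.1, which is the smallest that 3 libraries against 3 can give. The difference was -12.9 percentage points, and -6.86 without WT replicate 2. Most of it lay in lrRNA, which took 16.1%, 27.0% and 15.8% of all counts in WT, against 8.61%, 11.7% and 9.62% in M1BP RNAi. The protein-coding genes together took 10.1%, 17.16% and 10.4% in WT, against 6.31%, 11.4% and 9.84% in M1BP RNAi. These ranges overlapped, and the exact permutation p was 0.4.

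Within the mtDNA counts the composition differed between the groups. The share of lrRNA was 61.3%, 61.0% and 60.1% in WT, against 57.1%, 49.97% and 48.9% in M1BP RNAi. The protein-coding genes held 38.5%, 38.8% and 39.6% in WT, against 41.9%, 48.9% and 50.02%. The tRNA genes held 0.260%, 0.204% and 0.285% in WT, against 0.759%, 0.754% and 0.743% in M1BP RNAi, a 3.01-fold higher mean. The largest ratio of means was that of srRNA, which made up 0.0154%, 0.0110% and 0.0247% of rRNA counts in WT, against 0.396%, 0.790% and 0.736% in M1BP RNAi, 37.6-fold higher. None of these pairs of groups overlapped, and in each the exact permutation p was 0.1, the smallest possible, or 0.156 after adjustment over the 14 shares compared. WT libraries were close to each other in the shares of lrRNA and the protein-coding genes but not in that of srRNA, and M1BP RNAi replicate 1 was the closest to WT for lrRNA and srRNA but not for the tRNA genes.

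**Figure D1:**
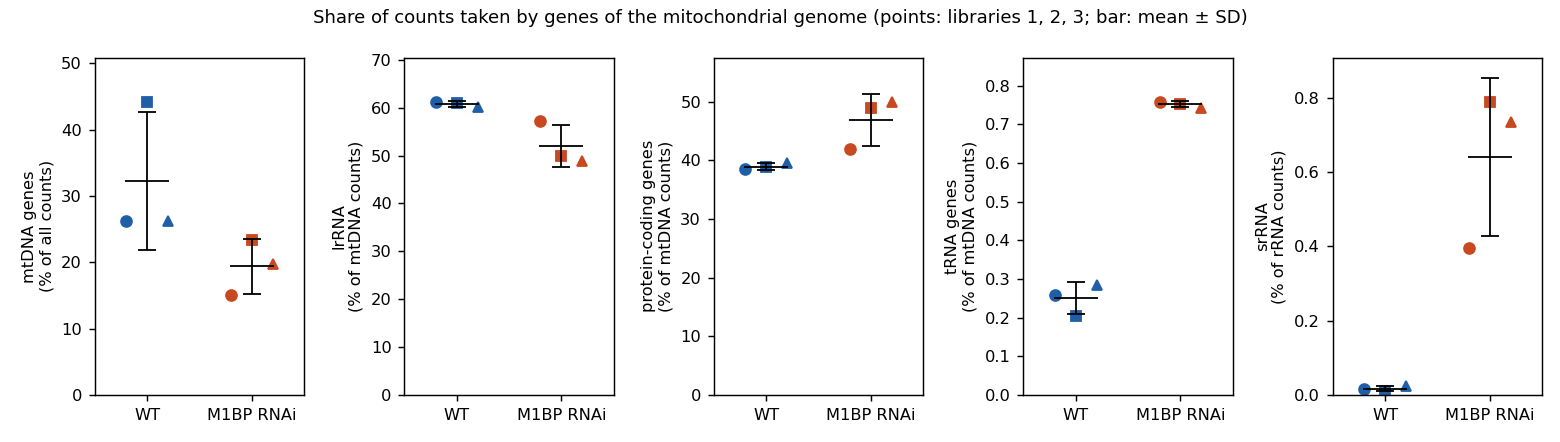
Each panel plots 1 share in percent by group, with a point for each library (circle, square and triangle for replicates 1, 2 and 3) and the mean ± SD (n = 3) as a bar. The groups do not overlap in any of the 5 panels, and the tRNA share runs from 0.204% to 0.285% in WT and from 0.743% to 0.759% in M1BP RNAi.

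Each gene was then tested with edgeR's quasi-likelihood test on the whole count table, with Benjamini-Hochberg adjustment over 8806 genes, and called at an adjusted p of 0.001 or less and a change of at least 1.5-fold. The counts were scaled in 3 ways. When scaled to all genes (TMM), 1 member, tRNA:Val-TAC, was called higher in M1BP RNAi, or 2.94% of the 34 tested, where 2.20% of all genes were called higher. No member was called lower, where 2.88% of all genes were. Of the 34, 17 had an unadjusted p under 0.05, and DESeq2 called 7 higher and 0 lower. Scaling to nuclear counts alone gave the same single call, against 2.13% of all genes higher and 2.54% lower. In that scaling 17 members had an unadjusted p under 0.05, and DESeq2 called 8 higher and 0 lower. The shares of all genes at that unadjusted p or called by DESeq2 are not given here. The counts of members by those measures thus have no background beside them. In all-gene CPM the groups did not overlap for 9 members that were higher (26.5%, where 21.5% of all genes were) and for 6 that were lower (17.6%, where 25.0% of all genes were), shares that lay near the background.

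Scaled to the total mtDNA count of each library, 12 members, or 35.3% of the 34 tested, were called higher and 0 lower. Of all genes, 2.43% were called higher and 2.59% lower. Nuclear genes kept the nuclear scaling in this fit, so these shares rest on different references. The called members were ND3, srRNA and 10 tRNA genes. Of the 34, 28 had an unadjusted p under 0.05, and DESeq2 called 22 higher and 0 lower, again without a share of all genes beside them. In this scaling a value answers only how a gene moved relative to the rest of the genome, and since lrRNA held most of the counts it weighed most in the reference. With the total of the 13 protein-coding genes as the reference, all values dropped by 0.27 on the log2 scale and the same 12 genes were called. With the median ratio over mtDNA genes (RLE) as the reference, values dropped by 1.59, and 6 genes were called higher (tRNA:Asp-GTC, tRNA:Arg-TCG, tRNA:Asn-GTT, tRNA:Ser-GCT, tRNA:Val-TAC and srRNA) and 8 lower (CoI, CoII, CoIII, ATPase6, ND5, ND4, Cyt-b and lrRNA), with 17 of the 34 above 0 and 17 below. The difference in change between these sets of genes is the same under each reference, while the direction of a single gene is not.

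The median log2 fold change of the protein-coding genes was -0.79 scaled to all genes, where the median of all genes was -0.02, and 11 of 13 were below 0. Relative to total mtDNA counts it was 0.53, and 12 of 13 were above 0. For the 19 tRNA genes tested the medians were 1.22 and 2.50, and all 19 were above 0 in the second scaling. Values relative to mtDNA counts are higher than those scaled to all genes by construction where the mtDNA share of the counts is lower. This does not fix the sign in either scaling. Scaled to all genes and relative to mtDNA counts, ND3 (0.65 and 2.02) and ND4L (0.68 and 1.79) were above 0 in both. Cyt-b (-1.32 and -0.01) and lrRNA (-1.61 and -0.23) were below 0 in both, and the other protein-coding genes changed sign.

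**Figure D2:**
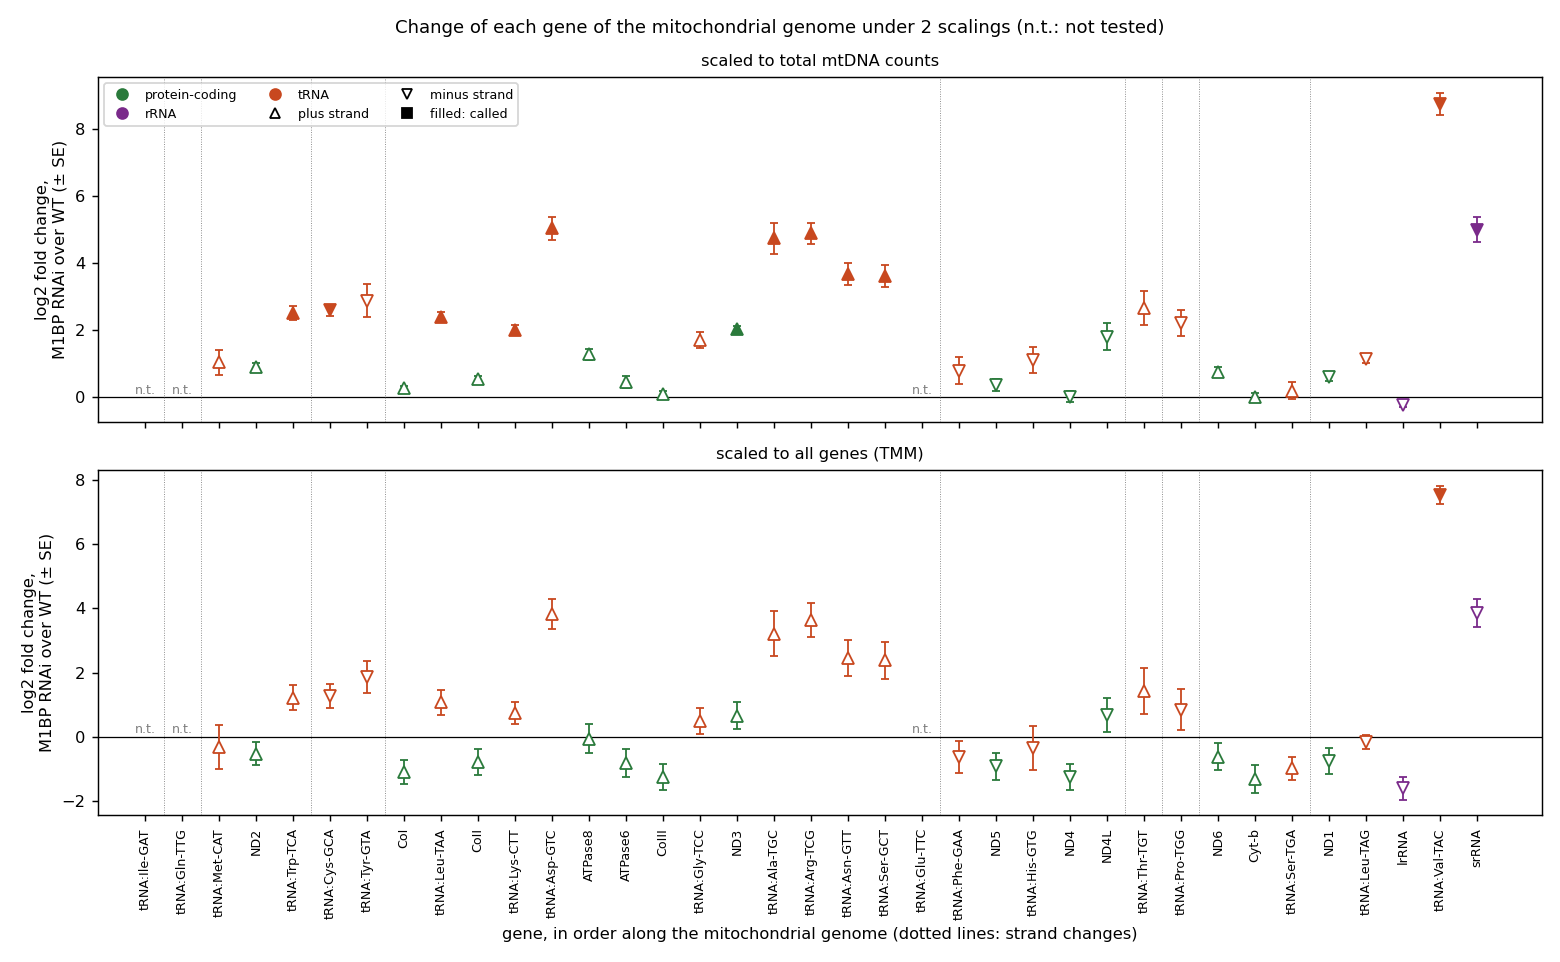
The log2 fold change of M1BP RNAi over WT (± SE) is plotted for each gene in its order along the genome, scaled to total mtDNA counts (top) and to all genes (bottom). Triangles point up for plus-strand and down for minus-strand genes, filled symbols were called, and dotted lines mark changes of strand. The highest values are those of tRNA:Val-TAC (8.75 and 7.55), and the protein-coding genes lie near or above 0 in the top panel and mostly below 0 in the bottom panel.

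The rRNA run showed the widest range. The srRNA (FBgn0013688, minus strand, 14131 to 14916), the RNA of the small mitoribosomal subunit, held 94.4, 67.1 and 149 counts per 1e6 mtDNA counts in WT, against 2269, 3978 and 3624 in M1BP RNAi. The groups were far apart, with M1BP RNAi replicate 1 the lowest of its group. Its log2 fold change was 4.99 ± 0.38 (SE) in this scaling, with an adjusted p of 2.05e-04, and 3.86 ± 0.44 (SE) scaled to all genes, with an adjusted p of 0.00115 that missed the threshold. In all-gene CPM it was 28.1, 43.8 and 42.6 in WT, against 261, 805 and 591 in M1BP RNAi. Its groups were thus apart in either scaling. These are counts of oligo(dT)-captured RNA, and the total amount of srRNA was not measured. The lrRNA (FBgn0013686, 12734 to 14058), the RNA of the large subunit, was at 182444, 398358 and 172216 CPM in WT, against 65816, 101097 and 79768 CPM in M1BP RNAi, the opposite order of the groups. This was a log2 fold change of -1.61 ± 0.35 (SE, adjusted p = 0.0151), which was not called, and relative to mtDNA counts it was -0.23 ± 0.07 (SE, adjusted p = 0.0417).

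The tRNA gene between the rRNAs, tRNA:Val-TAC (FBgn0013708, 14058 to 14130), rose more than any other member. Its raw counts were 32, 15 and 21 in WT, against 4473, 7014 and 5233 in M1BP RNAi. As counts per 1e6 mtDNA counts this was 2.22, 0.79 and 1.85 in WT, against 701, 694 and 630 in M1BP RNAi, so its M1BP RNAi libraries differed little from each other. Its log2 fold change was 8.75 ± 0.33 (SE) relative to mtDNA counts (adjusted p = 2.23e-05) and 7.55 ± 0.28 (SE) scaled to all genes (adjusted p = 2.41e-05). Per base of gene, the count of tRNA:Val-TAC was 0.00658%, 0.00235% and 0.00557% of that of the adjoining lrRNA in WT, against 2.23%, 2.52% and 2.34% in M1BP RNAi, and that of srRNA was 0.0260%, 0.0185% and 0.0417% in WT, against 0.669%, 1.34% and 1.25% in M1BP RNAi. The gene overlaps lrRNA by 1 base on the same strand. How reads that spanned it and its neighbours were counted was not given in the sources used here, so these per-base ratios are uncertain. The mitochondrial valyl-tRNA synthetase ValRS-m, which charges this tRNA, was at 31.5, 26.2 and 30.6 CPM in WT, against 22.3, 21.3 and 20.6 CPM in M1BP RNAi (log2 fold change -0.46 ± 0.09 SE, adjusted p = 0.0109), which was not called.

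At the other side of lrRNA, tRNA:Leu-TAG (12670 to 12734) held the highest count per base of the tRNA genes, at a mean of 427 counts per base in WT, where the next, tRNA:Lys-CTT, had 51.4. It had 2028, 1545 and 2169 counts per 1e6 mtDNA counts in WT, against 4744, 3891 and 4037 in M1BP RNAi, where the log2 fold change was 1.142 ± 0.14 (SE, adjusted p = 0.00163), just short of the threshold. The groups did not overlap. ND1 (11721 to 12659), a core membrane subunit of Complex I, ended the run with 1.22%, 1.53% and 1.61% of mtDNA counts in WT, against 2.22%, 2.45% and 1.99% in M1BP RNAi. Its log2 fold change was 0.61 ± 0.12 (SE, adjusted p = 0.0109). Along the direction of transcription, the called genes of the run, srRNA and tRNA:Val-TAC, came first and the uncalled lrRNA, tRNA:Leu-TAG and ND1 followed.

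Among the 7 Complex I genes only ND3 was called. ND3 (FBgn0013681, plus strand, 5608 to 5961), a small membrane subunit next to the quinone site of Complex I, held 1989, 2288 and 2211 counts per 1e6 mtDNA counts in WT, against 7988, 9321 and 8961 in M1BP RNAi. Its log2 fold change of 2.02 ± 0.09 (SE, adjusted p = 2.80e-05) was the most precise of the called genes, and the call held when any 1 library was left out. In all-gene CPM, ND3 was 592, 1494 and 633 in WT, against 920, 1886 and 1463 in M1BP RNAi, ranges that overlapped through WT replicate 2. ND4L (9545 to 9835), another small membrane subunit, had 46.6, 31.9 and 57.1 counts per 1e6 mtDNA counts in WT, against 79.2, 234 and 155 in M1BP RNAi (log2 fold change 1.79 ± 0.40 SE, adjusted p = 0.0166). ND4L was higher in all M1BP RNAi libraries, but these differed from each other by more than those of ND3.

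The other Complex I genes had smaller values. ND2 (240 to 1265) had 484, 569 and 583 counts per 1e6 mtDNA counts in WT, against 1144, 874 and 1013 in M1BP RNAi (log2 fold change 0.89 ± 0.12 SE, adjusted p = 0.00233). ND6 (9971 to 10495) had 55.6, 73.1 and 78.0 in WT, against 111, 113 and 125 in M1BP RNAi (0.76 ± 0.14 SE, adjusted p = 0.00733). Both ND2 and ND6, which encode membrane subunits of the complex, had groups that did not overlap, and neither was called. The antiporter-like subunit genes ND5 (6409 to 8125) and ND4 (8207 to 9545) overlapped between the groups. ND5 held 1.09%, 1.13% and 1.46% of mtDNA counts in WT, against 1.21%, 1.82% and 1.66% in M1BP RNAi (0.35 ± 0.17 SE), and ND4 held 1.40%, 1.27% and 1.51% in WT, against 1.05%, 1.58% and 1.57% in M1BP RNAi (0.01 ± 0.16 SE).

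The Complex III and IV genes were among the most abundant mRNAs, and none was called relative to mtDNA counts. Cyt-b (10499 to 11635), the haem-binding core of Complex III, held 4.44%, 4.62% and 4.99% of mtDNA counts in WT, against 3.78%, 5.33% and 4.88% in M1BP RNAi, and these ranges overlapped (-0.01 ± 0.13 SE). The catalytic core of Complex IV, CoI (1474 to 3009), held 14.1%, 14.4% and 14.52% in WT, against 16.7%, 17.1% and 18.2% in M1BP RNAi, where the groups did not overlap (0.27 ± 0.05 SE, adjusted p = 0.00751). CoII (3083 to 3767), which receives electrons from cytochrome c, held 3.39%, 3.20% and 3.32% in WT, against 4.06%, 5.02% and 5.27% (0.53 ± 0.10 SE, adjusted p = 0.00798), and neither gene was called. CoIII (4736 to 5524), which binds next to the catalytic core, held 9.56%, 9.64% and 8.87% in WT, against 9.13%, 9.97% and 11.0% in M1BP RNAi, ranges that overlapped (0.10 ± 0.08 SE). The Co genes together made up 70.4%, 70.2% and 67.5% of the protein-coding mtDNA counts in WT, against 71.3%, 65.6% and 68.9% in M1BP RNAi (exact permutation p = 0.7).

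Scaled to all genes, these abundant mRNAs had negative values, and none was called. CoI was 42059, 94218 and 41577 CPM in WT, against 19231, 34545 and 29709 CPM in M1BP RNAi, where the log2 fold change was -1.09 ± 0.37 (SE, adjusted p = 0.0685). CoIII (-1.26 ± 0.40 SE), Cyt-b (-1.32 ± 0.43 SE) and ND4 (-1.27 ± 0.41 SE) had similar values. These 4 were the protein-coding genes whose groups did not overlap in all-gene CPM, and in each of them WT replicate 2 lay far above the other WT libraries. CoII was 10099, 20899 and 9511 CPM in WT, against 4680, 10150 and 8609 CPM in M1BP RNAi (-0.79 ± 0.39 SE), and ND5 (-0.93 ± 0.42 SE), ATPase6 (-0.83 ± 0.44 SE) and ND1 (-0.76 ± 0.41 SE) likewise overlapped.

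Of the Complex V genes, which encode the a subunit of the proton channel (ATPase6) and a small membrane subunit of the peripheral stalk region (ATPase8), ATPase6 (4062 to 4736) held 2.99%, 2.70% and 2.98% of mtDNA counts in WT, against 2.80%, 4.57% and 4.40% in M1BP RNAi (log2 fold change 0.44 ± 0.18 SE, adjusted p = 0.111). ATPase8 (3907 to 4068) had 70.8, 67.6 and 54.3 counts per 1e6 mtDNA counts in WT, against 123, 172 and 172 in M1BP RNAi (1.28 ± 0.17 SE, adjusted p = 0.00190). ATPase8 was higher in every M1BP RNAi library, ATPase6 was not. These genes share 7 bases and lie on 1 bicistronic mRNA in animals, and how reads that spanned both were counted was not given in the sources used here, so the low count of ATPase8 is uncertain. The same holds for ND4L, which shares 1 base with ND4.

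The long plus-strand run held 7 of the 10 called tRNA genes. Past ND3, the cluster of tRNA:Ala-TGC, tRNA:Arg-TCG, tRNA:Asn-GTT, tRNA:Ser-GCT and tRNA:Glu-TTC (5983 to 6325) had 4 tested genes, all called. tRNA:Ala-TGC had 2.08, 8.15 and 5.36 counts per 1e6 mtDNA counts in WT, against 140, 117 and 163 in M1BP RNAi, and tRNA:Arg-TCG had 1.46, 1.95 and 2.81 in WT, against 48.3, 81.4 and 51.4 in M1BP RNAi. tRNA:Asn-GTT had 2.85, 2.63 and 3.25 in WT, against 21.95, 52.8 and 35.5 in M1BP RNAi, and tRNA:Ser-GCT had 2.64, 2.42 and 2.11 in WT, against 18.2, 41.98 and 27.7 in M1BP RNAi. The log2 fold changes in gene order were 4.73 ± 0.45 (SE), 4.88 ± 0.32 (SE), 3.67 ± 0.34 (SE) and 3.61 ± 0.33 (SE). In each of the 4 all M1BP RNAi libraries lay above all WT libraries, and in the last 3 replicate 2 was the highest. The last gene, tRNA:Glu-TTC, had 1, 0 and 0 counts in WT, against 5, 15 and 3 counts in M1BP RNAi and did not pass the filter.

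Further upstream in that run, tRNA:Asp-GTC (3840 to 3906) rose from 2.50, 2.42 and 4.83 counts per 1e6 mtDNA counts in WT to 73.5, 120 and 119 in M1BP RNAi, with a value of 5.03 ± 0.34 (SE, adjusted p = 1.33e-04). Its neighbour tRNA:Lys-CTT (3768 to 3838), the second of the tRNA genes in mean count per base over the 6 libraries, went from 251, 214 and 287 to 840, 1103 and 1060 (2.00 ± 0.15 SE), and tRNA:Leu-TAA (3012 to 3077), the third, from 95.4, 110 and 142 to 553, 656 and 612 (2.39 ± 0.16 SE). The pair differed widely in level, at 0.68 and 51.4 counts per base in the WT mean. The per-base ratio of tRNA:Asp-GTC to tRNA:Lys-CTT went from 1.06%, 1.199% and 1.78% to 9.28%, 11.5% and 11.9%. The unknown counting of reads that spanned both genes limits this ratio too. In the first part of the map, tRNA:Trp-TCA (1264 to 1329) rose from 2.22, 1.73 and 1.76 to 9.57, 11.5 and 11.4 (2.50 ± 0.20 SE). On the other strand tRNA:Cys-GCA (1322 to 1383), which overlaps tRNA:Trp-TCA by 8 bases, rose from 4.51, 3.57 and 3.34 to 22.9, 24.5 and 21.4 (2.58 ± 0.16 SE). The libraries were stranded, but the strand setting of the counting was not given in the sources used here, so reads in this overlap may not be told apart.

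**Figure D3:**
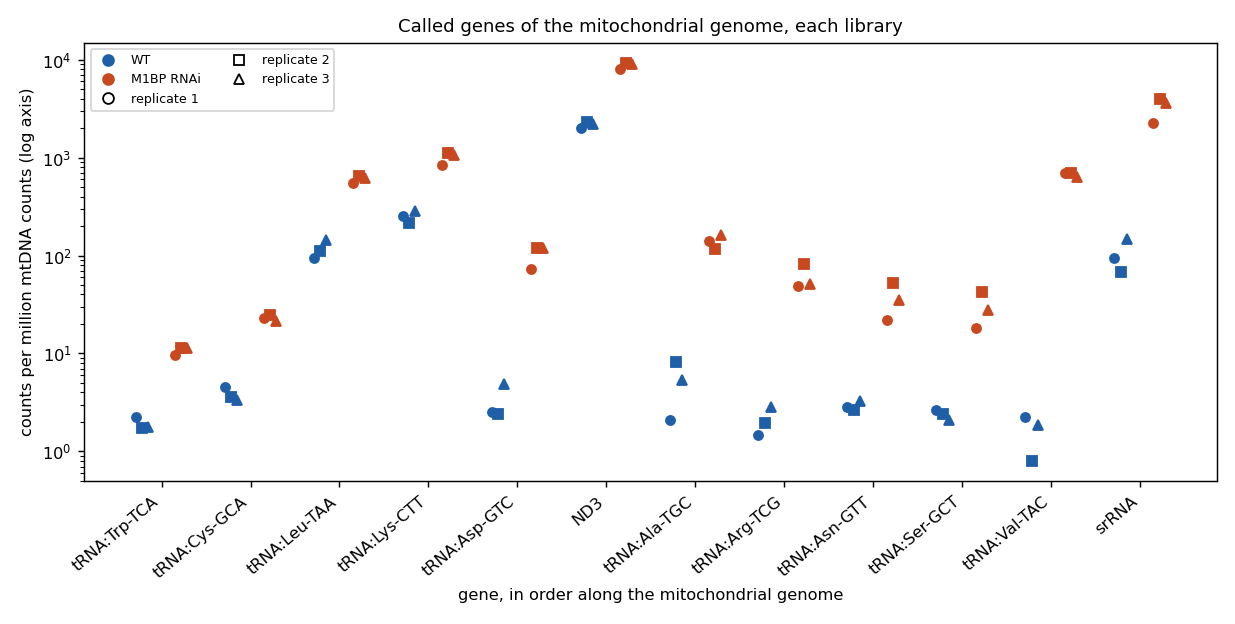
Counts per 1e6 mtDNA counts (log axis) are shown for the 12 genes called in the mitochondrial scaling, in genome order, with WT in blue, M1BP RNAi in red and 1 symbol for each replicate. In all 12 the M1BP RNAi libraries lie above the WT libraries, with the widest gap at tRNA:Val-TAC, from 0.79 to 2.22 in WT and from 630 to 701 in M1BP RNAi.

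Fewer genes were called with fewer libraries. When 1 library was left out in turn, ND3 and tRNA:Val-TAC kept their call in all 6 fits, and the other 10 kept it in 1 to 4 of the 6, with adjusted p of at most 0.00486. The counts of called members were 5 without WT replicate 1, 4 without WT replicate 2, 11 without WT replicate 3, and among the M1BP RNAi libraries 10, 3 and 3 without replicates 1, 2 and 3.

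The 9 tested tRNA genes that were not called had log2 fold changes of 0.19 to 2.88 relative to mtDNA counts, with a median of 1.142. At the upper end, tRNA:Tyr-GTA (1403 to 1468) ranged from 45.01 to 113 counts per 1e6 mtDNA counts in M1BP RNAi, against 4.42 to 13.4 in WT. The lowest value belonged to tRNA:Ser-TGA (11638 to 11703), behind Cyt-b, which was also the only tested tRNA gene whose groups overlapped in this scaling. It was also the only tRNA gene that was lower in every M1BP RNAi library in all-gene CPM. For the mitochondrial scaling the share of all genes whose groups overlapped was not computed, so overlap there has no background beside it. The genes left out of the test had 3, 3 and 3 counts in WT, against 0, 6 and 4 in M1BP RNAi for tRNA:Ile-GAT, and 2, 0 and 1 counts in WT, against 4, 4 and 2 in M1BP RNAi for tRNA:Gln-TTG. At this depth no difference was detectable for either.

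Neighbouring genes on the same strand were compared by their count per base of gene. ND3 stood at 4.64%, 5.29% and 5.55% of the per-base count of CoIII, the previous mRNA of its run, in WT, against 19.5%, 20.8% and 18.1% in M1BP RNAi. ND4L stood at 1.53%, 1.16% and 1.74% of ND4 in WT, against 3.47%, 6.82% and 4.54% in M1BP RNAi. The ratio of ATPase8 to ATPase6 was 0.931% ± 0.15 (SD, n = 3) in WT and 1.68% ± 0.14 (SD, n = 3) in M1BP RNAi. That of ND6 to Cyt-b was 1.73-fold higher in M1BP RNAi, and that of ND2 to CoI, which lie on the same strand with the tRNA:Cys-GCA and tRNA:Tyr-GTA pair between them, 1.54-fold higher. In each of these pairs the ratio of the rarer gene to the more abundant one was higher in M1BP RNAi.

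Ratios between abundant genes moved less. Per base, lrRNA stood at 503%, 491% and 481% of CoI in WT, against 397%, 340% and 311% in M1BP RNAi. CoIII went from 127% ± 6.97 (SD, n = 3) to 113% ± 5.69 (SD, n = 3) of CoI, and Cyt-b from 44.1% ± 2.10 (SD, n = 3) to 36.3% ± 5.81 (SD, n = 3). In all 16 pairs examined the 2 groups did not overlap, and each exact permutation p was 0.1, the smallest possible, before and after adjustment over the pairs. The pairs were chosen with the values known.

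**Figure D4:**
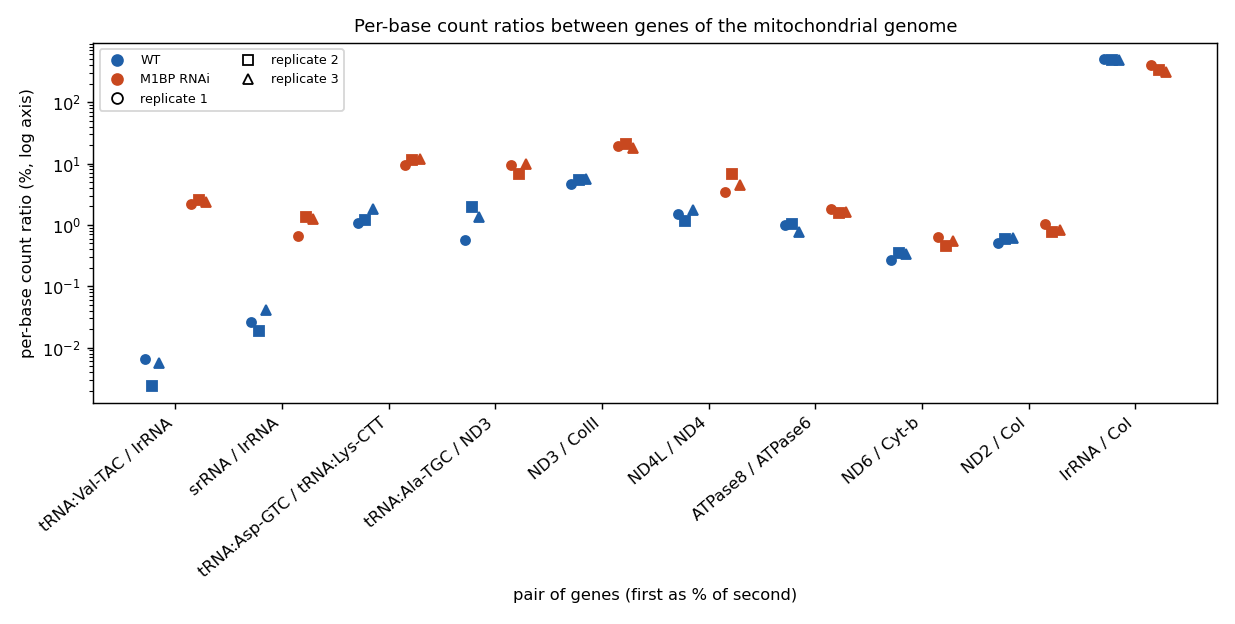
The per-base count of the first gene of each pair, as a percentage of that of the second (log axis), is plotted for each library, with WT in blue and M1BP RNAi in red. The ratios of tRNA:Val-TAC and srRNA to lrRNA differ most between the groups (489-fold and 37.8-fold in the means), and the ratio of lrRNA to CoI is the only one shown that is lower in M1BP RNAi.

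By strand, 65.2%, 65.1% and 65.0% of mtDNA counts lay on minus-strand genes in WT, against 62.4%, 56.7% and 54.9% in M1BP RNAi. The lrRNA gene lies on that strand. Without the rRNA genes the minus-strand share was 10.1%, 10.5% and 12.1% in WT, against 11.8%, 12.8% and 11.3% in M1BP RNAi, with overlapping ranges and an exact permutation p of 0.3, and over the protein-coding genes alone p was 0.5. Among tRNA genes, the 12 tested on the plus strand had a median log2 fold change of 2.58 relative to mtDNA counts, 8 of them called, and the 7 tested on the minus strand a median of 2.21, 2 of them called. The medians of the protein-coding genes were 0.53 on the plus strand (9 genes) and 0.48 on the minus strand (4 genes).

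By run, the 15-gene run that begins with CoI held 8 of the 12 calls and had the widest spread after the rRNA run, from 0.10 at CoIII to 5.03 at tRNA:Asp-GTC. Its share of mtDNA counts was 30.3%, 30.2% and 30.0% in WT, against 33.7%, 37.9% and 40.1% in M1BP RNAi. The rRNA run held 62.7%, 62.7% and 62.0% in WT, against 60.1%, 53.3% and 51.7% in M1BP RNAi. The 5-gene run of ND5, ND4 and ND4L had no call and values of 0.01 to 1.79, and the run of ND6, Cyt-b and tRNA:Ser-TGA none either, with values of -0.01 to 0.76. Within a run the change was uneven from gene to gene, as between lrRNA and the adjoining tRNA:Val-TAC.

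Among the protein-coding and rRNA genes, the change also differed with the level of a gene in WT. The protein-coding and rRNA genes under 100 counts per base in WT (ND6, srRNA, ND4L, ATPase8, ND2 and ND3) had log2 fold changes of 0.76 to 4.99 relative to mtDNA counts, with a median of 1.53. The 9 genes above that level had values of -0.23 to 0.61, with a median of 0.27. The ranges of these sets did not overlap, and the level that divides them was set after the values were seen. Across the 34 tested members, Spearman's rho between the WT level per base and the log2 fold change was -0.68. It was -0.80 across the 15 protein-coding and rRNA genes, and none was computed for the tRNA genes alone. The value over all members mixes these classes of genes. These are descriptions across genes of the same libraries, which share the scaling reference and the WT counts, and genes are not independent replicates. Genes off this trend included tRNA:Ser-TGA, with 6.07 counts per base in WT and a value of 0.19. Another was tRNA:Leu-TAG, the seventh of all members per base in WT, with a value of 1.142. The tested tRNA genes lowest in WT, at 0.14 to 0.32 counts per base, varied widely. Their values were 2.65 (tRNA:Thr-TGT), 0.79 (tRNA:Phe-GAA), 2.21 (tRNA:Pro-TGG), 8.75 (tRNA:Val-TAC), 1.10 (tRNA:His-GTG) and 1.03 (tRNA:Met-CAT).

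**Figure D5:**
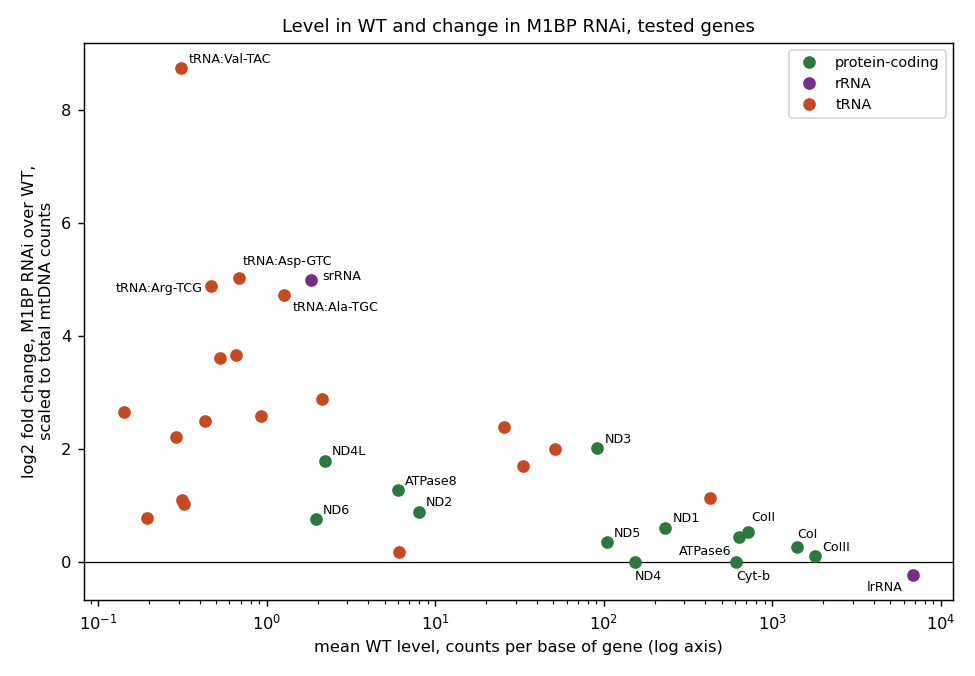
Each point is 1 of the 34 tested genes, placed by its mean WT level in counts per base (log axis) and its log2 fold change of M1BP RNAi over WT relative to total mtDNA counts. The 9 protein-coding and rRNA genes above 100 counts per base lie between -0.23 and 0.61, and most tRNA genes below 10 counts per base lie above 2.

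By count per base, the order in WT began with lrRNA, CoIII, CoI, CoII, ATPase6 and Cyt-b, with means of 6863, 1783, 1395, 718, 633 and 612 counts per base. In M1BP RNAi the first 3 were the same, with means of 3210, 1058 and 933 counts per base. The next places differed between the M1BP RNAi libraries, since tRNA:Leu-TAG was above CoII and ATPase6 in replicate 1 and below both in replicates 2 and 3. Over the WT libraries the ranges of CoIII and CoI overlapped, as did those of CoII, ATPase6 and Cyt-b, although CoIII was above CoI, and CoII above ATPase6, in each single library. By the means of these unscaled counts, ND3 went from the 11th to the 8th place, srRNA from the 21st to the 16th and tRNA:Val-TAC from the 31st to the 14th.

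Variation within the groups was followed for each member as counts per 1e6 nuclear counts. In WT replicate 2 the protein-coding genes were 1.37 to 2.44 times the mean of the other WT libraries, with a median of 2.24, and lrRNA was 2.24 times that mean. The tRNA genes ranged more widely, from 0.75 times (tRNA:Tyr-GTA) and 0.86 times (tRNA:Val-TAC) to 4.87 times (tRNA:Ala-TGC). In M1BP RNAi replicate 1 the protein-coding genes were at 0.26 to 0.79 times the mean of the other M1BP RNAi libraries, with a median of 0.51. The deviation of these libraries was thus shared by most members, and the mitochondrial scaling takes a shared factor out.

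Other measures moved with these libraries and groups. The dosage compensation RNA roX1, which is made in males, was at 0.0414 and 0.206 CPM in WT replicates 1 and 2, 22.3 CPM in WT replicate 3 and 30.2 to 63.1 CPM in M1BP RNAi. In WT replicate 3 lrRNA held 60.1% and the tRNA genes 0.285% of mtDNA counts, and tRNA:Val-TAC stood at 1.85 counts per 1e6 mtDNA counts. With roX1 as a covariate, 5 of the 12 calls in the mitochondrial scaling were kept and that of srRNA was lost (log2 fold change 4.32), while the median of the protein-coding genes scaled to all genes went from -0.79 to -0.29. The summed level of 5 haemocyte markers (Hml, NimC1, Pxn, eater and Sr-CI) was 21.0 to 26.1 CPM in WT and 33.9 to 45.7 CPM in M1BP RNAi. The 6 fat body markers summed to 82.1 to 290 CPM in WT, highest in WT replicate 2, and to 158 to 277 CPM in M1BP RNAi. Neuron markers summed to 14.8 to 24.2 and 14.3 to 18.5 CPM, and trachea and tendon markers to 48.1 to 104 and 54.8 to 64.9 CPM. The part of sex and of these cell types in the mtDNA results was not tested.

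The nuclear genes that transcribe mtDNA and process its RNA were examined as the machinery that acts on these transcripts. Of 18 listed genes, 17 were found and tested and 0 were called by edgeR, where 2.20% of all genes were called higher and 2.88% lower. Of the 17, 8 had an unadjusted p under 0.05, and the median log2 fold change was 0.06. DESeq2 called RNaseZ and SLIRP2 higher. For that unadjusted p and for DESeq2 the shares of all genes are not given here. RNaseZ, which encodes the tRNA 3′ endonuclease, was the nearest to the threshold, at 4.20, 4.09 and 4.15 CPM in WT, against 7.30, 8.31 and 7.13 CPM in M1BP RNAi (0.87 ± 0.10 SE, edgeR adjusted p = 0.00115). SLIRP2, a partner of the RNA-stabilising LRPPRC proteins, was at 10.3, 8.76 and 10.4 CPM in WT, against 14.9, 16.61 and 16.2 CPM in M1BP RNAi (0.69 ± 0.10 SE). The RNase P subunit gene scu had a value of 0.49 ± 0.07 (SE), and the poly(A) polymerase gene MTPAP one of 0.34 ± 0.08 (SE). The RNA degradation genes PNPase (-0.30 ± 0.13 SE) and Suv3 (-0.02 ± 0.08 SE) were below 0, and the other 4 listed RNA processing genes tested had values of 0.04 to 0.39.

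No gene of the transcription apparatus was called. The polymerase gene PolrMT was at 151, 128 and 150 CPM in WT, against 111, 115.3 and 115.5 CPM in M1BP RNAi (-0.33 ± 0.08 SE, adjusted p = 0.0257). TFAM, which packages mtDNA and opens its promoters, was at 121 to 134 CPM in WT and 108 to 130 CPM in M1BP RNAi (-0.10 ± 0.09 SE). The values for mTTF, mtTFB1 and mtTFB2 were -0.34, -0.27 and -0.14, and those for mTerf3 and mTerf5 were 0.06 and 0.37. Among 4 genes of mtDNA replication, PolG1, the catalytic subunit of the mtDNA polymerase, was called lower, from 5.03, 5.36 and 5.99 CPM in WT to 0.60, 0.54 and 0.67 CPM in M1BP RNAi (-3.17 ± 0.15 SE, adjusted p = 3.47e-05). It was named after its values were seen. Its accessory subunit PolG2 (-0.34 ± 0.09 SE), mtSSB (0.10 ± 0.20 SE) and mtDNA-helicase (0.02 ± 0.26 SE) were not called. The number of mtDNA copies was not measured.

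Finally, the mtDNA-encoded subunits were set beside the nuclear subunits of the same complexes, all scaled to all genes. Of 69 nuclear subunit genes of Complexes I, III, IV and V, all were tested, 1 was called higher and 4 lower, where 2.20% and 2.88% of all genes were called, and the median log2 fold change was -0.31, with 66 of 69 below 0. By complex the nuclear medians were -0.33 for Complex I, -0.27 for Complex III, -0.29 for Complex IV and -0.31 for Complex V, and the mtDNA medians were -0.62 (7 genes), -1.32 (1 gene), -1.09 (3 genes) and -0.45 (2 genes). The nuclear list was compiled by the study. The mtDNA values carried standard errors of 0.36 to 0.53 against 0.06 to 0.31 for the nuclear subunits, and the difference between the genomes was not tested.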

How the data were processed

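Poly(A)-selected, stranded libraries of flight muscle were sequenced in 3 WT and 3 M1BP RNAi samples. The deposited table holds raw counts per gene over exons, made by the authors from uniquely mapped reads on dm6 with featureCounts (Subread 2.0.3, after bcl2fastq 2.17.1.14, per the submitters' processing notes). Strand and overlap settings of the counting, and the annotation release, are not given in the sources used here. The other column used, also deposited by the authors, is the summed exon length of each gene. A second deposited table, which holds the authors' own DESeq2 comparison (mean level, log2 fold change with its standard error, p and adjusted p), was not used. One unnamed line of the count table, with 0 counts, was left out.

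Counts were tested with edgeR 4.0.16 (glmQLFit and glmQLFTest, filterByExpr) in R 4.3.3 on all genes, with Benjamini-Hochberg adjustment and a call at an adjusted p of 0.001 or less and at least 1.5-fold. Library sizes came from all genes (TMM), from nuclear genes (TMM), or, for mtDNA genes, from their total per library. CPM (counts per 1e6 counts) are scaled by TMM over all genes. Counts per base divide raw counts by gene length without scaling between libraries. Shares and ratios had two-sided exact permutation tests, whose smallest p is 0.1. Spearman's rho was computed with scipy 1.17.1. Alternatives were DESeq2 1.42.0, other filters, thresholds and scalings, the replicate number as a block, roX1 as a covariate, and each library left out. The fits were also run on simulated data with known changes, where the spread of mtDNA genes was capped. That run does not show how the fits behave at the spread of the real mtDNA genes. Counts of 3 or fewer were taken as the floor of detection, and no fold was given for genes at it. Counting intervals cover counting error only. Replicates of a group differed beyond sampling noise (chi-square per degree of freedom 32.0 to 321.6). The study describes its experiments in general as 3 independent biological replicates, and the sequenced RNA as triplicate preparations. No source says that pools came from separate crosses, so p-values measure the spread between these samples.

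Values in every library were given for the protein-coding and rRNA genes, any tRNA gene called in a scaling, and the 3 tRNA genes with the highest mean count per base. The other tRNA genes were summarised. The members and gene lists were chosen with earlier results of these data known. Coordinates are those of the count table, and 30 of the 37 members had the same start and end in the Ensembl annotation of the organism. No sequences are shown.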

Additional observations from a re-analysis of the deposited data

How the results depend on the processing

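Counts of called mtDNA genes moved with the threshold and the test. Scaled to all genes, the 1 gene called higher became 9 at an adjusted p of 0.05 without a minimum fold, 7 with DESeq2, 4 with no filter and 4 with the replicate block, and 1 to 2 without single libraries, and the 0 called lower became 1 at an adjusted p of 0.05. Scaled to nuclear counts, the 1 higher became 10, 8, 4 and 4 under the same settings, 2 with no TMM factor and 1 to 2 without single libraries, and the 0 lower became 1 at an adjusted p of 0.05. In the mitochondrial scaling, the 12 higher became 24 at an adjusted p of 0.05, 22 with DESeq2, 7 with the replicate block, 5 with roX1 as a covariate, 6 with RLE over mtDNA genes and 3 to 11 without single libraries, and the 0 lower became 1 at an adjusted p of 0.05 and 8 with RLE. Of the genes for mitochondrial transcription and RNA processing, 4 were higher and 2 lower at an adjusted p of 0.05, and 2 were higher with DESeq2. Of the nuclear OXPHOS subunits, the 1 higher became 0 with roX1 and 0 to 1 without single libraries, and the 4 lower became 47 at an adjusted p of 0.05, 7 with DESeq2 and 2 to 4 without single libraries. The causes were not tested, beyond the looser threshold and the fewer samples that these settings consist of. The shares of all genes called under these settings are not given here.

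The difference in minus-strand share, -7.06 percentage points, was 1.07 without the rRNA genes and 0.61 for protein-coding genes only. With RLE over mtDNA genes the sign turned for ND2 (-0.65), CoI (-1.29), CoII (-1.05), ATPase8 (-0.33), ATPase6 (-1.17), CoIII (-1.47), ND5 (-1.24), ND4 (-1.59), ND6 (-0.81), ND1 (-0.95), tRNA:Leu-TAG (-0.40), tRNA:Met-CAT (-0.60), tRNA:Phe-GAA (-0.75), tRNA:His-GTG (-0.50) and tRNA:Ser-TGA (-1.41). With the protein-coding total it turned for CoIII (-0.17), ND4 (-0.27) and tRNA:Ser-TGA (-0.09), and with the total without rRNAs for CoI (-0.0063), CoIII (-0.18), ND4 (-0.28) and tRNA:Ser-TGA. ND4, near 0 in the mitochondrial scaling, was also -0.012 with the replicate block, -0.17 with roX1 and -0.087 to 0.18 without single libraries, where Cyt-b ranged from -0.11 to 0.12. Scaled to all genes, ND2 ranged from -0.73 to 0.035 without single libraries, ATPase8 from -0.35 to 0.50 (0.80 with roX1), and tRNA:Leu-TAG from -0.31 to 0.13 (0.13 with roX1). In ND2, ATPase8 and tRNA:Leu-TAG the highest value was that without WT replicate 2. Of 748 values under alternatives of the genes given in every library, 641 kept direction and call, 54 lost the call, 24 gained it and 29 changed sign.

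The median of the protein-coding genes scaled to all genes was -1.07 to -0.31 without single libraries (-0.31 without WT replicate 2) and -0.29 with roX1. The mtDNA share differed by -15.9 to -6.86 percentage points and the minus-strand share by -9.24 to -5.52 without single libraries. Same-numbered samples correlated at 0.343, 0.093 and 0.357 in their deviations from the group means. Each M1BP RNAi library correlated best with the WT library of its own number. WT replicate 2, however, correlated best with M1BP RNAi replicate 1 (0.178). Not every pair passed 0.1, so the numbers were not taken as pairs in the main fits, and pairing by number remains possible. With the replicate block the median was -0.77, and the paired permutation p of both shares was 0.25, the smallest that 3 pairs can give. Depth limits the tRNA genes with few counts. With 3 libraries a group no permutation p can fall under 0.1.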
